A study of Canis lupus familiaris with 6 samples.

Results

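The miR-30 family is a set of microRNAs (miRNAs) with closely related sequences. Its 5 members on the array, cfa-miR-30a, cfa-miR-30b, cfa-miR-30c, cfa-miR-30d and cfa-miR-30e, were taken by name from the 289 canine miRNAs measured. They were read by 12 probes with 200 spots per array. RNA came from the dog mammary tumour lines P114, CMT-U309 and CMT-U27, each stained for stem cell antigen 1 (Sca1), which marks stem and progenitor cells on their surface. The cells of each line were sorted by flow cytometry into Sca1+ cells, which the labels call cancer stem cells, and Sca1- cells, which they call the control. All lines were grown in RPMI-1640 with fetal bovine serum. The descriptions of both P114 samples mention growth with macrophages, those of the CMT-U27 and CMT-U309 samples growth as mono-culture. With 1 sample of each fraction from every line, the study held 3 Sca1+ and 3 Sca1- samples. Nothing says how the cultures were separated, and p-values cover no more than the spread of these samples.

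The arrays did not carry equal signal, and their assignment to samples was not settled. Arrays B1, B2 and B3 detected 89 to 111 miRNAs and are called bright, a limit of more than 50 chosen with the data known. Arrays D1, D2 and D3 detected 9 to 39 and are called dim. As the scanner files are attached, B1, D1 and D3 were Sca1+ (CMT-U309, CMT-U27 and P114), and B2, D2 and B3 were Sca1- (CMT-U309, CMT-U27 and P114). In the deposited value table, B1, D1 and D2 held the Sca1+ samples (P114, CMT-U27 and CMT-U309), and B3, B2 and D3 the Sca1- samples (P114, CMT-U27 and CMT-U309). B1 was thus Sca1+, and B2 and B3 were Sca1-, in both assignments. B2 and B3 resembled each other most among the bright arrays. Pearson's r of log2 signal, across 82 miRNAs and as a description, was 0.978 between them, against 0.813 for B1 with B2 and 0.874 for B1 with B3. Between B2 and B3 73.2% of those miRNAs lay within 2 array errors of each other, so they differed by more than the array error and were counted as 2 samples.

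A miRNA guides the Argonaute complex to messenger RNAs that pair with its seed, the bases near its 5′ end, and represses them. The miR-30 members share that seed and so overlap in targets. In human breast cancer the family was reported to be reduced in tumour-initiating cells, where miR-30e restored differentiation traits by repressing UBC9 and integrin beta 3. miR-30a is known in human cells to repress SNAI1, an inducer of the mesenchymal state, and the autophagy gene BECN1. miR-30c is known in human breast cancer cells to repress the actin-binding protein TWF1, and miR-30b with miR-30d to repress the glycosyltransferase GALNT7 in human melanoma.

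The family's probes are shown because they set what each value can mean. The letters below are the RNA stretches, 5′ to 3′, that pair with the longest probe of each miRNA, computed as the reverse complement of the probe in the files. Capitals in the first 4 mark the longest run that also stands, letter for letter, in the miR-30e probe itself, and capitals in the last mark the complement of the miR-30b run.
miR-30a: uccuCGACUGgaagc
miR-30b: AACAUCCuacacucagcu
miR-30c: CAUCCuacacucucagcu
miR-30d: ccCCGACUGgaagcu
miR-30e: cagucGGAUGUUuacagc
The miR-30e stretch did not read like the others. Its probe, gctgtaAACATCCgactg, held the same 7 letters in the same sense as the miR-30b RNA, and a run of 7 letters in the sense of the miR-30d RNA. The longest run that the miR-30e stretch shared with any other stretch in the same sense was 4 letters. By its letters the miR-30e feature pairs with an RNA that is complementary to the others over these runs, as the opposite arm of a hairpin precursor would be, and not with an RNA holding the family's sequence. The files name it only cfa-miR-30e, and its signal is given below under that name.

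The other 4 members fell into pairs with near-identical stretches. Capitals here mark the letters that differ within each pair.
miR-30a: uccUcgacuggaagc
miR-30d: ccCcgacuggaagcu
miR-30b: aacauccuacacucagcu
miR-30c: cauccuacaCUcucagcu
miR-30a and miR-30d matched at 13 of 14 aligned letters. miR-30b and miR-30c matched at 16 of 18, the other 2 being letters present in miR-30c alone. Binding of one member to the probe of its near-identical partner was not tested, and the signals of such pairs may not be independent.

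The loci follow another pairing. In the build of the array design, canFam2, the probes of miR-30b (chr13:33940941-33940957) and miR-30d (chr13:33945214-33945227) lie 4256 bases apart. Those of miR-30a (chr12:36783495-36783508) lie 25980 bases from a match of miR-30c (chr12:36757497-36757514). miR-30c has a second match (chr15:5283938-5283955), 3279 bases from miR-30e (chr15:5287235-5287251). The miR-30c probes therefore sum 2 loci that the array cannot separate. In the RefSeq table of assembly UU_Cfam_GSD_1.0, MIR30C-1 and MIR30E lie inside NFYC, which encodes a subunit of the transcription factor NF-Y. There MIR30A and MIR30C-2 neighbour each other inside the unnamed gene LOC119874195, and MIR30B and MIR30D inside LOC119864727. No other gene stands between the members of any pair.

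Levels are given as the total gene signal in intensity units, with the error that the scanner software assigns within the array. A miRNA was flagged as detected where at least 1 of its probes had a signal over 3 times its error, a rule that held for 1734 of 1734 pairs of miRNA and array. The total signal was the sum over those probes alone, in 361 of 361 detected pairs to within 0.1%. It is 0.1 for an undetected miRNA, written below as not detected. Signals of different miRNAs come from different probes and are not set against each other. Fewer cells that hold a miRNA and less of it per cell cannot be told apart in these bulk samples.

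miR-30b was detected on 4 arrays. B1 gave 673 ± 47.7, B2 456 ± 32.8, B3 471 ± 34.2 and D2 7.51 ± 2.39, and it was not detected on D1 or D3. B1 gave the highest value, and B2 and B3 did not differ beyond their errors. On D2 0 of its 40 spots were called well above background. As attached, the Sca1+ samples (B1, D1 and D3) and the Sca1- samples (B2, D2 and B3) overlap, since B1 lies at the top and the undetected D1 at the bottom. The same holds by the value table, with B1, D1 and D2 as Sca1+ and B3, B2 and D3 as Sca1-.

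miR-30d, the neighbour of miR-30b on chromosome 13, was also detected on 4 arrays. B1 gave 347 ± 27.5, B2 247 ± 21.0, B3 284 ± 23.3 and D1 10.8 ± 3.48, and it was not detected on D2 or D3. The order over the bright arrays was B1, B3 and B2, and the log2 ratio of B2 over B3 was -0.20 with an array error of 0.17. The detection on D1 alone among the dim arrays was a near thing. The 15-base probe of miR-30d had 10.8 ± 3.48 on D1, 8.58 ± 3.61 on D2 and 8.14 ± 3.22 on D3, so only D1 passed 3 errors while the 3 values lay within 1 error of each other. The Sca1+ and Sca1- samples overlap in both assignments. All 3 dim values were above the 95th percentile of probes of undetected miRNAs, which was 4.05 on D1, 3.54 on D2 and 3.16 on D3.

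miR-30c was detected on the bright arrays alone. B1 gave 70.3 ± 7.12, B2 37.3 ± 5.26 and B3 33.7 ± 4.38. B1 was the highest, and B2 and B3 did not differ beyond their errors. With the undetected D1 also Sca1+, the fractions overlap in both assignments. The sum on B1 took in the 17-base probe, at 8.50 ± 2.53, which failed the 3-error rule on B2 and B3. By the 18-base probe alone, summed over its spots, B1 exceeded B2 1.66-fold and B3 1.84-fold, against 1.88-fold and 2.09-fold by the total gene signal. On D1 the 18-base probe had 5.92 ± 2.23, short of the limit, and on D2 and D3 it had 0.412 ± 2.27 and 0.251 ± 2.02.

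miR-30a and miR-30e were detected on B1 alone. miR-30a had a total of 33.3 ± 5.71 there. Its 15-base probe had 19.7 ± 4.16 on B1, against 10.5 ± 5.79 on B2 and 8.20 ± 4.38 on B3, and at most 1.30 on the dim arrays. miR-30e had 13.4 ± 3.90 on B1, which is the signal of its 18-base probe, against 12.4 ± 5.83 on B2 and 12.1 ± 4.46 on B3 for the same probe. The miR-30e signal was thus almost level over the bright arrays, at 3.45 errors on B1, 2.13 on B2 and 2.71 on B3. No fold is given for either miRNA. After scaling, the signal of its brightest probe on B1 was 0.631 times (miR-30a) and 0.433 times (miR-30e) the lowest signal called well above background on B2 and B3, averaged on the log2 scale.

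**Figure D1:**
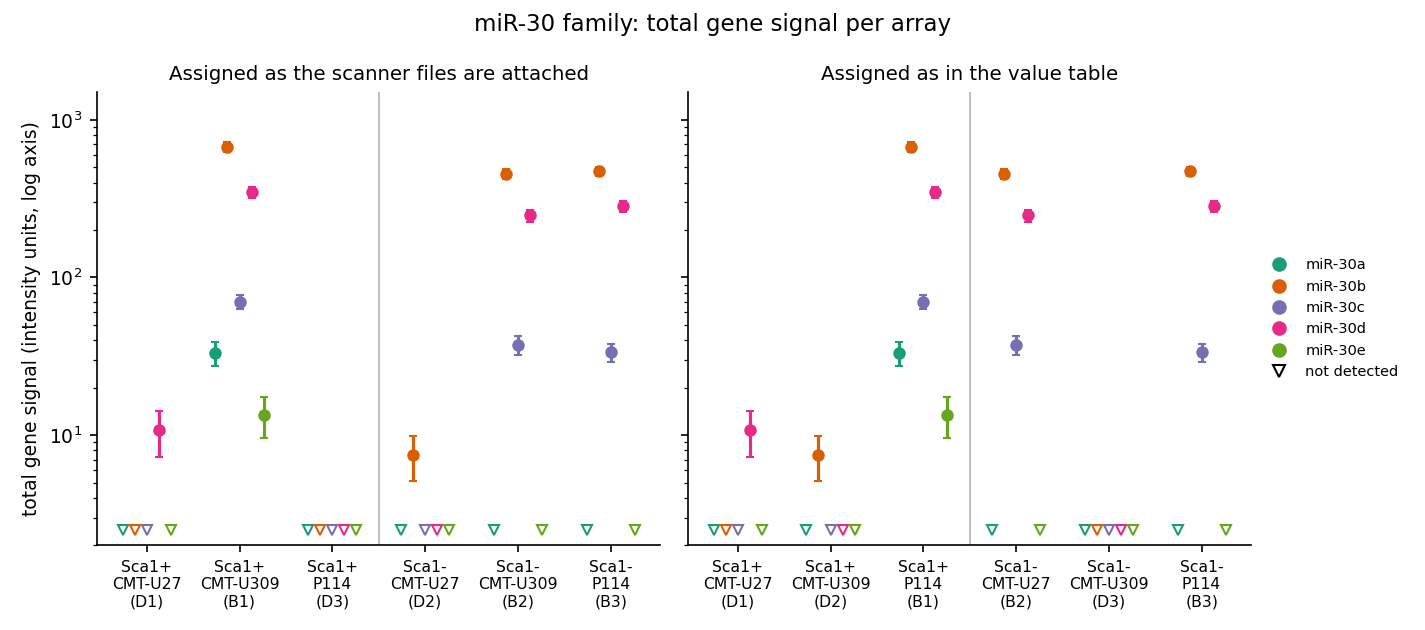
Total gene signal (log axis, intensity units) of the 5 miR-30 miRNAs in each sample, with the scanner software's error as bars, Sca1+ samples left of Sca1- samples, for both assignments of arrays to samples. Open triangles, placed at the foot of the axis, stand for undetected miRNAs, and miR-30b, miR-30c and miR-30d are high on B1, B2 and B3 wherever those arrays fall.

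**Figure D2:**
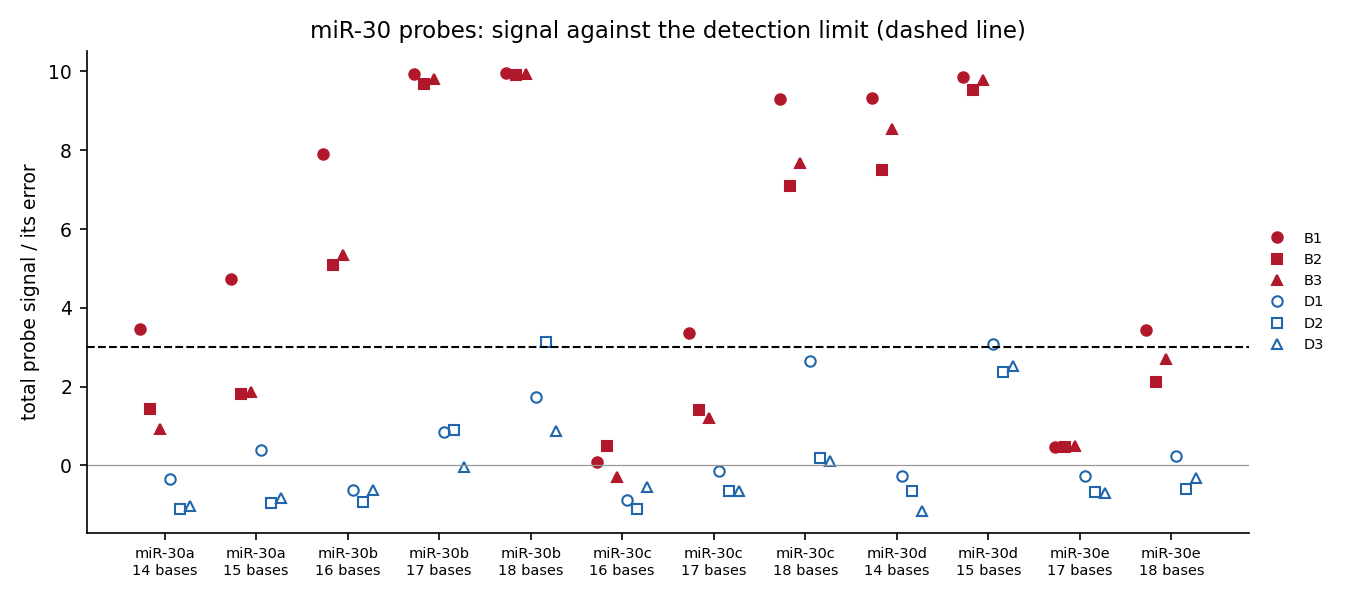
Total probe signal divided by its error for the 12 miR-30 probes on the 6 arrays, with the detection limit of 3 errors as the dashed line. On the dim arrays (open blue symbols) only the 18-base miR-30b probe on D2 and the 15-base miR-30d probe on D1 pass it, both narrowly.

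The family's detections can be read against those of all miRNAs on the array. On B1 5 of 5 members were detected, where 38.4% of all miRNAs on the array were. On all of B1, B2 and B3 3 of 5 were, where 27% of all miRNAs were. On B1 and neither of the other bright arrays 2 of 5 were detected, where 8.65% of all miRNAs were. Of these, miR-30e had an almost level signal by its 18-base probe, at 13.4 on B1, 12.4 on B2 and 12.1 on B3. Only its value on B1 passed the 3-error rule. On at least 1 dim array 2 of 5 were detected, where 15.2% of all were. With 5 members these counts describe the family and were not tested. Of the 600 spots of the family on the dim arrays, 5 were called well above background. No spot of the family was saturated on any array.

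The bright arrays allow the Sca1+ array B1 to be set against the Sca1- arrays B2 and B3, whose fractions do not depend on the assignment. All 3 members detected on them had more signal on B1, by the total gene signal before scaling. miR-30b had 1.48-fold more signal on B1 than on B2 (log2 0.56 ± 0.15, array error) and 1.43-fold more than on B3 (0.52 ± 0.15). miR-30d was 1.40-fold higher than on B2 (log2 0.49 ± 0.17) and 1.22-fold higher than on B3 (0.29 ± 0.16). miR-30c was 1.88-fold higher than on B2 (log2 0.91 ± 0.25) and 2.09-fold higher than on B3 (1.06 ± 0.24). Each ratio exceeded its array error, which leaves out the spread between samples. All 3 of these miRNAs were above both B2 and B3, as were 65.4% of the 78 miRNAs detected on the bright arrays. The median log2 ratio of those 78 miRNAs was 0.50 against B2 and 0.55 against B3, and that of the 3 members 0.56 and 0.52. Counting down from the highest ratio over B2, 37 of the 78 miRNAs stood above miR-30b, 39 above miR-30d and 22 above miR-30c. Over B3 the counts were 42, 49 and 18. miR-30b and miR-30d thus lay near the middle of all miRNAs and miR-30c in the upper part. The miR-30c total on B1 took in its 17-base probe, which the totals on B2 and B3 left out. By its 18-base probe alone, miR-30c was 1.66-fold higher than on B2 and 1.84-fold higher than on B3. Its place by that probe was not ranked.

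**Figure D3:**
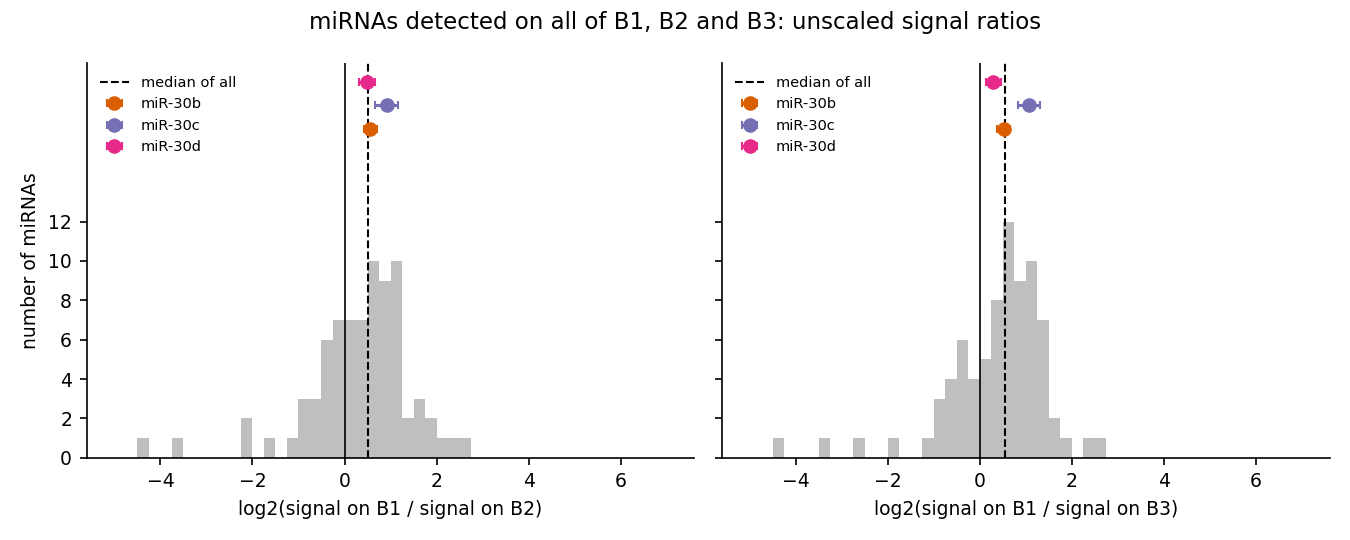
Histograms of the log2 ratio of unscaled signal on B1 over B2 (left) and over B3 (right) for the 78 miRNAs detected on all bright arrays, with miR-30b, miR-30c and miR-30d above them at arbitrary heights, bars showing the arrays' errors. The dashed median of all 78 miRNAs lies near miR-30b in both panels, and all 3 members lie right of 0.

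The nested probes of a member gave similar ratios. From the medians over spots, the 16-base, 17-base and 18-base probes of miR-30b gave 1.36-fold, 1.46-fold and 1.45-fold higher values on B1 than B2. Against B3 they were 1.67-fold, 1.51-fold and 1.36-fold higher. The 14-base and 15-base probes of miR-30d were 1.47-fold and 1.36-fold higher against B2, and 1.37-fold and 1.23-fold against B3. These 5 probes and the 18-base probe of miR-30c were well above background in at least 50% of their spots on every bright array. Over the family's probes that were so on a given array, the coefficient of variation between spots had a median of 7.68% (range 1.35% to 18.9%). Spots share 1 sample and measure the array's error only.

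The share of the summed signal taken by the family was 1.64% on B1, against 1.05% on B2 and 1.12% on B3. Each family share given here sums 5 members on B1 but 3 on B2 and B3, since undetected members count as 0. Those shares move with miR-21, which many tumours express strongly. It made up 26.2% of the sum on B1, 45.4% on B2 and 45.5% on B3. Without miR-21, a choice made after its share was seen, the family took 2.23% on B1, 1.92% on B2 and 2.06% on B3. On that scale miR-30c remained above both Sca1- arrays, by log2 ratios of 0.51 against B2 and 0.64 against B3. Both ratios use its B1 total, which includes the 17-base probe left out on B2 and B3. miR-30b differed by 0.16 and 0.10, and miR-30d by 0.09 and -0.13, beside medians of 0.10 and 0.13 over the 78 miRNAs.

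B1 also stood apart in markers of cell type, whose part in these values was not tested. Of 7 epithelial marker miRNAs (the miR-200 family with miR-203 and miR-205), 5 were detected on B1 with a summed signal of 5129, against 1 on B2 at 28.9 and 0 on B3. Of 6 mesenchymal or stromal markers, 2 were detected on B1 with a sum of 18192, against 3 on B2 at 32775 and 3 on B3 at 32568. On each of these arrays the sum was nearly all miR-21. miR-199 was not detected on B1 and had 245 on B2 and 193 on B3. miR-140 had 19.9 on B1, 390 on B2 and 430 on B3, and miR-143, miR-145 and miR-214 were detected on no array. Of 6 leukocyte or macrophage markers, 3 were detected on B1 with a sum of 948, against 2 on B2 at 219 and 3 on B3 at 182. The sum on B1 included 690 for miR-146a, which also stands on the self-renewal list described below and was detected on no other array. miR-223, a myeloid miRNA, had 69.5 on B1, 80.9 on B2, 70.9 on B3 and 59.6 to 65.7 on the dim arrays. It did not follow the summed signal of all miRNAs, which ran from 319.5 on D3 to 70794 on B2. Whether the miR-223 signal came from myeloid cells was not tested. miR-142 and miR-150 were detected on no array. Of 2 erythroid markers, miR-451 was detected on B2 at 18.1 and on D2 at 39.4, and miR-144 on none. The endothelial marker miR-126 and 4 muscle markers were detected on no array. All lines are labelled as mammary cancer. On the dim arrays, 1 of 7 epithelial markers was detected on D2 and 0 on D1 and D3. Few miRNAs of any kind reached detection there, at 13.5% on D1, 7.61% on D2 and 3.11% on D3. The low marker counts on the dim arrays therefore do not show that those samples lack the markers. For comparison, B2 and B3 detected 31.5% and 30.8% of all miRNAs.

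After scaling between arrays, the members did not pass the test on the bright arrays. Values were scaled to the 75th percentile of probes well above background on all 3 arrays, and limma compared B1 with B2 and B3 over 90 miRNAs. 0 of the 3 tested members passed an adjusted p of 0.05, where 4.44% of the 90 miRNAs did. The log2 difference was 0.20 for miR-30b (SE 0.34, adjusted p = 0.728 with limma, 1 Sca1+ and 2 Sca1- arrays). It was 0.48 for miR-30c (SE 0.29, adjusted p = 0.366 with limma) and 0.03 for miR-30d (SE 0.38, adjusted p = 0.954 with limma). The median of the 3 members was 0.20 and that of all 90 miRNAs 0.18. With B3 as the only Sca1- array, that is without B2, the values were -0.02 for miR-30b, 0.39 for miR-30c and -0.25 for miR-30d, with no test. With B2 alone, that is without B3, they were 0.41, 0.58 and 0.31.

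Of these 3 members only miR-30c kept its sign over the alternative settings. Its log2 difference lay between 0.02, with scaling over all probes, and 0.80, with no scaling. It passed with normexp background, at 0.75 (adjusted p = 0.0162 with limma), where 54 of 90 miRNAs passed and the median of all miRNAs was 0.55, against 0.18 in the main setting. In the other settings its adjusted p with limma ranged from 0.0967 to 0.996. With 1 Sca1+ array, the fraction cannot be told apart from anything else particular to that sample.

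**Figure D4:**
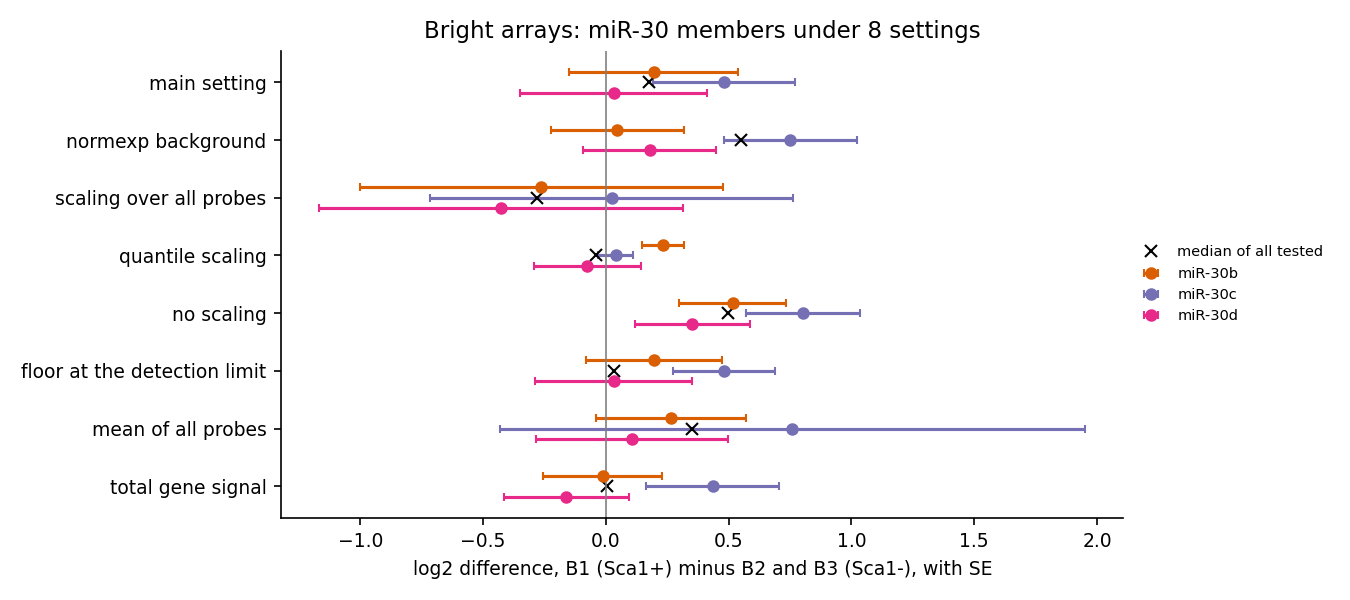
Log2 difference of B1 (Sca1+) minus B2 and B3 (Sca1-) with its SE from limma for miR-30b, miR-30c and miR-30d under the main setting and 7 alternatives, with the median of all tested miRNAs as a cross. The members and the cross shift between settings, and miR-30b and miR-30d fall on both sides of 0.

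Over all 6 arrays the question of the study, which miRNAs differ in Sca1+ cells, gave no call for the family. The model held a term for line, and 3 members were detected on the 3 arrays needed to enter it. As the scanner files are attached, 0 of 3 passed, where 0% of 80 miRNAs did. The log2 difference was -2.30 for miR-30b (SE 1.77), 0.07 for miR-30c (SE 2.33) and -0.22 for miR-30d (SE 1.70), all at an adjusted p of 0.995 with limma. By the value table, 0 of 3 passed as well, where 0% of 80 did. The log2 differences were -0.14 for miR-30b (SE 1.54, adjusted p = 0.958 with limma), 0.16 for miR-30c (SE 0.81, adjusted p = 0.945 with limma) and -0.92 for miR-30d (SE 0.84, adjusted p = 0.826 with limma). Each of the 3 was undetected on at least 2 arrays, where the fit still took the signal of its probe. The highest scaled log2 value of miR-30d was on D3 (-2.01), where it was not detected, against -3.27 on B1. Scaled miR-30c was -9.62 on D2 and -9.76 on D3, both undetected, against -4.68 on B1. These differences thus turn on signals below the detection limit and give no size for a change. Over all 80 miRNAs the counts at an unadjusted p under 0.05 were 0 as attached and 3 by the value table.

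Within lines, by the total gene signal before scaling, no member had the same direction in all 3 lines. As attached, miR-30b, miR-30c and miR-30d were higher in Sca1+ than in Sca1- in CMT-U309, which is B1 against B2, and miR-30a and miR-30e were detected in Sca1+ only. In P114, which is D3 against B3, miR-30b, miR-30c and miR-30d were detected in Sca1- only. In CMT-U27, which is D1 against D2, miR-30d was detected in Sca1+ only and miR-30b in Sca1- only. By the value table, P114 is B1 against B3, where miR-30b, miR-30c and miR-30d were higher in Sca1+, and miR-30a and miR-30e were detected in Sca1+ only. In CMT-U27, which is D1 against B2, miR-30b and miR-30c were detected in Sca1- only. miR-30d there had 10.8 in Sca1+, by the 15-base probe alone, and 247 in Sca1-, by both probes. In CMT-U309, which is D2 against D3, only miR-30b was detected, and only in Sca1+. Scaling changed some of these directions. Scaled over the bright arrays, log2 values on B1 and B3 were 0.68 and 0.71 for miR-30b and -0.68 and -0.43 for miR-30d. Both were thus lower on B1 than on B3, while miR-30b, miR-30c and miR-30d stayed higher on B1 than on B2. With scaling over all arrays, miR-30b (-1.91 against -1.76) and miR-30d (-3.27 against -3.02) were lower on B1 than on B2.

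The lines were compared with fraction as a term. As the scanner files are attached, 0 of 3 tested members passed, where 0% of 80 miRNAs did, and each had an adjusted p of 0.901 with limma. By the value table, just 1 of 3 passed, where 17.5% of the 80 did. This was miR-30c, at an adjusted p of 0.0495 with limma over the 3 lines. Its total gene signal was 70.3 and 33.7 in P114 (B1 and B3). It was not detected on D1 and had 37.3 on B2 in CMT-U27, and was not detected in CMT-U309 (D2 and D3). The test used scaled log2 probe values instead. These were -4.68 on B1, -5.03 on B3, -4.70 on D1 and -4.69 on B2, against -9.62 on D2 and -9.76 on D3. CMT-U309 is represented by dim arrays alone in that assignment. The call was lost without D2 (adjusted p = 0.111), D3 (0.188), B3 (0.227) or B1 (0.314), and in 5 of 8 other settings. miR-30b and miR-30d each had an adjusted p of 0.610 with limma in the main setting. miR-30d passed in 3 settings, at 0.000504 with normexp background, 0.0345 with a floor at the detection limit and 0.0370 with the total gene signal. Of all 80 miRNAs, 66 passed with normexp background, 55 with the floor and 20 with the total gene signal. miR-30b passed with normexp background alone, at 0.0438.

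The miRNAs outside the family with the most similar profile over B1, B2 and B3 were sought among 75 candidates. The measure was the root mean square difference of centred log2 signal from the family's sum. That sum took in 5 detected members on B1 and 3 on B2 and B3. The closest was miR-301a at 0.0240. Next came let-7a at 0.0450, let-7f at 0.0516, miR-378 at 0.0705 and miR-98 at 0.0754, against a median of 0.340 over the candidates. For miR-30c alone the nearest were miR-19a at 0.0202, miR-128 at 0.0483 and miR-7 at 0.0509. For miR-30b, over the 4 arrays that detected it, let-7a was the nearest of 18 candidates, at 0.0481 against a median of 0.724. For miR-30d, over its own 4 arrays, let-7a was the nearest of 36, at 0.0589 against a median of 0.566. let-7a lay among the closest for the family's sum and for both chromosome 13 members. These matches are not separate, since miR-30b and miR-30d make up most of that sum, with 673 and 347 of 1138 on B1. The profiles over 4 arrays join the bright arrays with a dim array, D2 for miR-30b and D1 for miR-30d. The summed signal was 1277 on D2 and 3228 on D1, against 69282 to 70794 on the bright arrays. With 3 or 4 arrays these are descriptions only, and the part of array depth in them was not tested.

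The family was also read within a list of miRNAs reported in breast tumour-initiating cells. The list holds the miR-200 family, the miR-183 cluster, let-7 and miR-30 itself. On the bright arrays 13 of its 20 members on the array were tested, 0 passed as higher and 0 as lower in B1, and 12 of 13 log2 differences were above 0, where 50 of 90 were above 0 among all miRNAs. Its median log2 difference was 0.48, which is the value of miR-30c itself, against 0.18 for all 90. In this fit and those over 6 arrays, the 13 include miR-30b, miR-30c and miR-30d, so the list is not separate from the family. On the bright arrays all 3 of these were above 0. Over 6 arrays 13 of its members were tested and gave 0 calls as attached, with 1 of 13 above 0, where 17 of 80 were, and a median of -0.68 against -0.81 for all 80 miRNAs. They gave 0 calls by the value table, with 2 of 13 above 0, where 23 of 80 were, and a median of -0.60 against -0.56. A second list of miRNAs tied to the epithelial state or self-renewal had 8 members on the array and 3 tested. On the bright arrays 1 of these 3, miR-34a, which p53 induces, passed as lower in B1, with a log2 difference of -3.70 (adjusted p = 0.0160 with limma), and 0 as higher, where 4.44% of all 90 miRNAs passed. The median log2 difference of the 3 tested, miR-34a, miR-221 and miR-222, was -2.27. Of the 5 that were not tested, miR-203, miR-205 and miR-146a were detected on B1 alone, at 422, 101 and 690. The list's summed signal was 1543.5 on B1, 1536 on B2 and 1281 on B3.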

How the data were processed

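RNA of 6 sorted samples was hybridised to single-channel Agilent miRNA arrays. The deposited values used were the spot and summed intensities of the scanner software, background-subtracted by Agilent Feature Extraction 10.10.1.1 per the file headers (version 10.7.3.1, per the submitters' processing notes, which differs). The labels name the dye Cy5, while the file headers hold 1 green channel. The deposited value table was used only to read which array it gives each sample. Controls and outlier spots were left out of the 11560 spots of 656 probes. Spot signals of 0 or less took the smallest positive signal on that array. Each miRNA took the probe with the highest mean, on the log2 scale, after subtraction of the 75th percentile of probes well above background on all arrays of the fit. These were 10 probes of 6 miRNAs over 6 arrays and 122 probes over the bright arrays. limma 3.58.1 in R 4.3.3 fitted line and fraction over miRNAs detected on at least 3 arrays, and fraction alone over the bright arrays (at least 2), with Benjamini-Hochberg adjustment at 0.05. The bright fit assumes that the single Sca1+ array varies like the Sca1- arrays. The fit over 6 arrays as attached was tested on simulated data. Those data had less spread than the real values and no undetected miRNAs. They therefore do not show what size of difference the fit could find here. Line stood for the replicate number because samples of a number came from the same cell line. Alternatives covered background, scaling, floor, probe choice, filter, block and arrays left out. Named miRNAs were the members, those nearest by profile, and members of the lists, with miR-21 and the marker miRNAs where a value turned on them. The members and lists were chosen with earlier results of these data known. The number of arrays limits the precision. Sequences came from the probe column of the scanner files.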

Additional observations from a re-analysis of the deposited data

Results flagged for a closer look

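The within-line directions of 3 members opposed each other, by the total gene signal before scaling. None of these differences between lines was tested, since each line gave 1 sample per fraction. As the scanner files are attached, miR-30b was 1.48-fold higher in Sca1+ than in Sca1- cells of CMT-U309 and was detected in Sca1- cells alone in CMT-U27 and P114. miR-30c was 1.88-fold higher in Sca1+ cells of CMT-U309 (1.66-fold by its 18-base probe alone) and detected in Sca1- cells alone in P114. miR-30d was 1.40-fold higher in Sca1+ cells of CMT-U309, detected in Sca1+ cells alone in CMT-U27, and detected in Sca1- cells alone in P114. By the value table, miR-30b was 1.43-fold higher in Sca1+ cells of P114, detected in Sca1+ cells alone in CMT-U309, and detected in Sca1- cells alone in CMT-U27. miR-30c was 2.09-fold higher in Sca1+ cells of P114 (1.84-fold by its 18-base probe alone) and detected in Sca1- cells alone in CMT-U27. miR-30d was 1.22-fold higher in Sca1+ cells of P114 and lower in Sca1+ cells of CMT-U27. Every opposed direction of the unscaled signal sets a dim array against another array. The summed signal was 319.5 to 3228 on the dim arrays and 69282 to 70794 on the bright ones. After scaling over the bright arrays, miR-30b and miR-30d were lower on B1 than on B3, and miR-30c was higher.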

How the results depend on the processing

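Values here are log2 differences of Sca1+ minus Sca1- unless given as counts, tests are limma's, and the cause of each shift was not tested. Over 6 arrays as attached, 0 miRNAs passed in every setting with all arrays, against 4 without the dim arrays. miR-30c turned to -0.091 with quantile scaling, -0.98 with no scaling, -0.29 with the mean of all probes and -1.38 with the total gene signal. miR-30d turned to 0.40 with normexp background, 0.20 with quantile scaling and 0.22 with scaling over all probes. Leaving out 1 array gave -2.35 to 2.47 for miR-30c and -0.82 to 0.37 for miR-30d, and either array of a line gave the same value. By the value table, normexp background gave 3 calls, scaling over all probes 1, and the fits with 1 array left out 0 to 1 (1 without D1 or B2). miR-30d turned to 0.29 with normexp background. Scaling over all probes turned miR-30d to 0.037 and miR-30b to 0.82. miR-30c turned to -0.23 with no scaling, -1.15 with the mean of all probes and -1.41 with the total gene signal. Leaving out 1 array gave -1.83 to 1.60 for miR-30b. No member passed in any of these settings. Without the replicate block, that is without line as a term, 0 miRNAs passed in either assignment. Among lines, 1 miRNA passed with the total gene signal as attached. By the value table, the count was 14, against 66 with normexp background, 9 with quantile scaling, 46 with no scaling, 55 with the detection-limit floor, 0 with no filter and 0 (without B1 or B3) to 40 (without B2) with 1 array left out. miR-30c among lines had an adjusted p of 0.333 with scaling over all probes, 0.112 with quantile scaling, 0.270 with the mean of all probes, 0.451 with the total gene signal and 0.222 with no filter. On the bright arrays 4 miRNAs passed, against 54 with normexp background, 0 with quantile scaling (29 at an unadjusted p under 0.05), 11 with scaling over all probes, 10 with the floor, 2 with the mean of all probes, 0 with no filter (32 unadjusted) and 8 over miRNAs detected on all arrays. Of these calls 43 of 54 were higher with normexp background, against 0 of 4 in the main setting, and scaling over all probes gave 1 higher of 11. miR-30b turned to -0.26 with scaling over all probes and -0.013 with the total gene signal, and spanned -0.022 to 0.41 with 1 Sca1- array left out. miR-30d turned to -0.43 with scaling over all probes, -0.076 with quantile scaling and -0.16 with the total gene signal, and spanned -0.25 to 0.31. The restriction to miRNAs detected on all 6 arrays was not run, since 9 were left.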
